A study of Mus musculus with 8 samples.

Results

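Cadherins are the adhesion receptors of adherens junctions, and the 9 genes described here encode 4 classical cadherins of muscle stem cells (Cdh15, Cdh4, Cdh2 and Cdh11), 4 catenins (Ctnnb1, Jup, Ctnna1 and Ctnnd1) and the junction protein Plekha7. They were taken by name from the 57180 genes of the count table. Plekha7 was included because earlier results of these data showed a difference between libraries of the same replicate number, so its difference is described here without a test; the other 8 genes were chosen by name, with those results known. All 9 genes passed the filter on low counts, which left 15660 genes.

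In muscle, a stem cell sits between a fibre and the basement membrane, and cadherins hold it to the fibre. The outer parts of cadherins on facing cells bind each other, and their inner parts bind catenins: beta-catenin or plakoglobin at the tail, with alpha-catenin linking these to actin, and p120-catenin nearer the membrane, where it keeps the cadherin at the surface. RhoA, the small GTPase targeted in this study, controls the contraction of the actin that these junctions pull on, and p120-catenin is itself a known brake on RhoA. Plekha7 binds p120-catenin and ties junctions to microtubules and to nectins, a separate class of adhesion molecules.

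RNA was sequenced from freshly isolated muscle stem cells purified by flow sorting. The control group held 4 wild-type libraries, numbered 2, 5, 7 and 8 in their titles. The RhoA het group held 4 libraries, numbered 5, 6, 7 and 8, from mice with a floxed RhoA allele and an intact one (fl/+); their genotype tag reads RhoA knockdown. The labels used here give neither the Cre line nor age, and they do not say whether libraries come from separate animals. The p-values therefore measure the spread between these samples, which may be technical in part. Libraries held 19138763 to 25606342 counted fragments. All 10 listed muscle stem cell markers were detected, with Pax7 between 46.6 and 100.1 TPM (transcripts per 1000000, a level corrected for gene length). Pax7 had a log2 fold change (RhoA het over control) of -0.51, with an adjusted p of 1.00 in edgeR's quasi-likelihood test and 0.143 with the replicate number as a block. The targeted gene, Rhoa, was measured at 273 to 383 CPM (counts per 1000000 fragments after library scaling) among controls and at 253 to 282 CPM among RhoA het libraries. For Rhoa the log2 fold change was -0.29 (SE 0.13, adjusted p 1.00 in edgeR).

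Several libraries stood apart in ways that touch the genes below. Control number 2 and RhoA het number 6 held 14358 and 14659 fragments of 4 Y-linked genes, and the other 6 libraries at most 2. Xist, made in female cells, had 5 and 7 fragments in these 2 libraries and 3539 to 5188 in the other 6. By these genes each group held both male and female cells, so its libraries did not all come from 1 animal. RhoA het number 6 also held 753 CPM of the 10 endothelial markers summed, against 113 to 216 CPM elsewhere. Mural markers, those of the cells around small vessels, summed to 2528 CPM in RhoA het number 8 and to at most 1746 CPM elsewhere. Both libraries numbered 5 were high in cell cycle genes, with Mki67 at 57.6 CPM for the control library and 37.6 CPM for the RhoA het one, against at most 3.80 CPM in the other 6 libraries. Numbers 5, 7 and 8 occur in both groups, and libraries of the same number deviated together, with correlations of 0.34 to 0.58 between their deviations from the group means. Differences within these 3 pairs are therefore given beside those over all 8 libraries.

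The 9 genes fell into 2 tiers of abundance. Over the 8 libraries, Ctnna1 averaged 208 ± 20.3 TPM (SD, n = 8), Cdh15 170.1 ± 47.0 TPM, Jup 142 ± 11.7 TPM and Ctnnb1 109 ± 16.5 TPM. Each of these 4 genes lay above at least 90.98% of the genes tested. Cdh4 followed at 14.4 ± 1.66 TPM, Ctnnd1 at 13.4 ± 2.46 TPM, Cdh2 at 10.9 ± 3.49 TPM, Cdh11 at 4.55 ± 2.75 TPM and Plekha7 at 4.04 ± 1.82 TPM. Neighbours in this order often overlapped: Ctnna1 lay above Cdh15 in 7 of 8 libraries and Cdh15 above Jup in 6 of 8. Jup was above Ctnnb1 in 8 of 8 libraries without overlap of their ranges, and so was Ctnnb1 above Cdh4. Within the lower tier the ranges of all neighbours overlapped, although Cdh2 exceeded Cdh11 in 8 of 8 libraries. The level of Ctnnd1 may be understated, because 61.2% of its exon bases are shared with Gm28635, an overlapping gene model on the same strand that held 0 fragments in every library; with the counting options in the file header, fragments touching both gene models are assigned to neither.

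**Figure D1:**
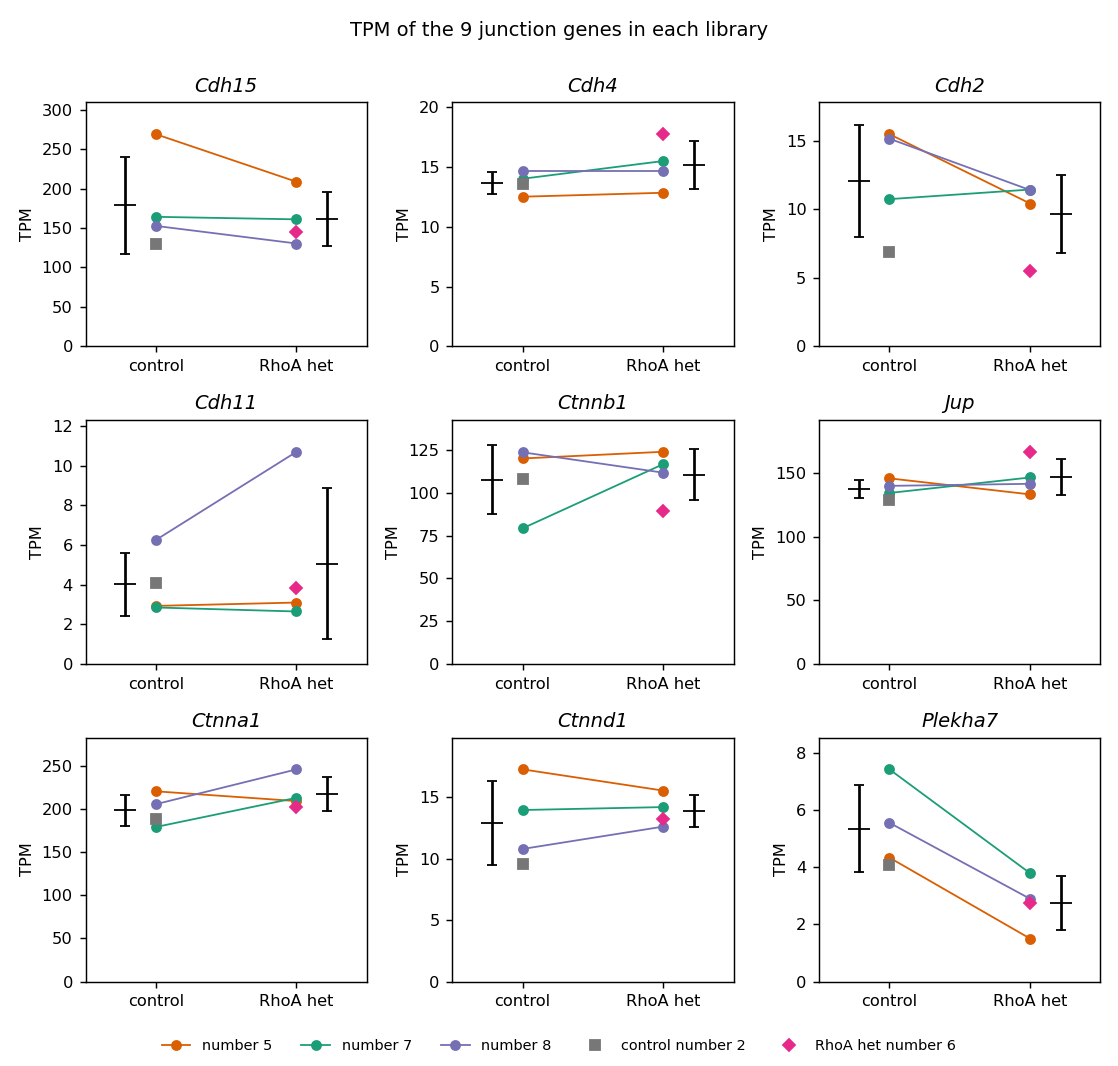
Levels of the 9 genes in TPM (vertical axes, linear from 0) in control and RhoA het libraries; lines join libraries of the same number, the square is control number 2, the diamond is RhoA het number 6, and the bars beside the points are the mean and SD of 4 libraries. Plekha7 is the only gene of the 9 whose groups do not overlap, with control libraries from 4.06 to 7.41 TPM and RhoA het libraries from 1.502 to 3.78 TPM. It was chosen for its difference within pairs, so nothing is read from this. Among all genes tested, 1.81% had groups that did not overlap in CPM, 0.792% with RhoA het lower.

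Cdh15 encodes M-cadherin, which is largely restricted to the muscle lineage and is used to mark these cells. It lies on chromosome 8 (mm39, 123574705 to 123594136, plus strand; ENSMUSG00000031962.7) and overlaps no other annotated gene. The stretch before its start is shown beside those of Ctnnb1 and Jup, because these are the abundant genes with an entry among the RefSeq promoters used (GRCm38.p6, which differs from the build of the counts). Entries were used for 4 of the 9 genes, these 3 and Ctnnd1; Plekha7, Cdh4 and Cdh11 had none, and the promoters of Cdh2 and Ctnna1 were not analysed here. Each line gives the 250 bases before an annotated start, 5′ to 3′ on the gene's strand, with matches to the E-box CANNTG in capitals; this motif reads the same on both strands and is bound by myogenic and many other factors.
Cdh15, chr8:122848124-122848373, plus strand: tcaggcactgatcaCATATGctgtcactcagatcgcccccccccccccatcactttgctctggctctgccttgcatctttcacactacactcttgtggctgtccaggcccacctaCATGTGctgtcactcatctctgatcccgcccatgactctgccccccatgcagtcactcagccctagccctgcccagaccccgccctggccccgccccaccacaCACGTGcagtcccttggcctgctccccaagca
Ctnnb1, chr9:120933150-120933399, plus strand: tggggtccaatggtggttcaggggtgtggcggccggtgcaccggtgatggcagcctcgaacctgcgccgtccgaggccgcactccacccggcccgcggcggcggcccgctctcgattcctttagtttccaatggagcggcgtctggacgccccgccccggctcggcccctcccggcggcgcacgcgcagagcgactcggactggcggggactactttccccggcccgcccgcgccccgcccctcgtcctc
Jup, chr11:100397791-100398040, minus strand: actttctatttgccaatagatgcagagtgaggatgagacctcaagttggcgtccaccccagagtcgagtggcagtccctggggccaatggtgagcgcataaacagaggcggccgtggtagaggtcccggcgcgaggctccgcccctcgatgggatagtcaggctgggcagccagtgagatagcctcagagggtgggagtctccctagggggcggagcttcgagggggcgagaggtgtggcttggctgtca
The Cdh15 stretch held 3 E-boxes, and those of Ctnnb1 and Jup held 0. Among all 32851 promoter stretches of this length, 66.2% held at least 1 such match and 12.2% at least 3. The stretches also differed in CG dinucleotides, with 5 in Cdh15, 13 in Jup and 35 in Ctnnb1, against a median of 6 over all stretches. Ctnnb1 has a second, overlapping entry, not printed, with 43 CG dinucleotides, 0 E-boxes and 1 TATA box (TATAAA on either strand, which 12.4% of all stretches hold). The first Ctnnd1 entry, not printed, held 1 E-box and 26 CG dinucleotides, and the other held 0 and 3. These are matches of letters and show no binding.

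Cdh15 was covered by 3108 to 5261 fragments in control and 2483 to 4154 in RhoA het. Its level was 130.4, 269, 164 and 153 TPM in control numbers 2, 5, 7 and 8. In RhoA het it was 209, 144, 161 and 130.4 TPM in numbers 5, 6, 7 and 8. Both libraries numbered 5 were the highest of their group, the groups overlapped, and in TPM the lowest library of each group reached the same level. In CPM the lowest control library was number 7, at 160.1 CPM. RhoA het numbers 6, 7 and 8 lay below it, at 153, 157 and 128 CPM, and RhoA het number 5 above it, at 195 CPM. Scaled to library size, controls averaged 183 ± 41.1 CPM and RhoA het libraries 158 ± 27.8 CPM (SD, n = 4 per group). This log2 fold change of -0.21 (SE 0.18, 95% interval -0.62 to 0.20) did not pass the test (adjusted p 1.00 in edgeR; two-sided exact permutation p 0.314, where 0.0286 is the smallest possible). Within pairs Cdh15 was lower in RhoA het in 3 of 3, with log2 differences of -0.33 for number 5, -0.025 for number 7 and -0.35 for number 8. Of all genes tested, 12.5% were lower in 3 of 3 pairs and 26.2% moved one way in 3 of 3. With the number as a block the log2 fold change was -0.26 (interval -0.52 to 0.0018, unadjusted p 0.0514 and adjusted p 0.931 in edgeR). Myofibre markers were lower in the same block fit, where 2 of 11 tested passed an adjusted p of 0.05, beside 0.0127% of all genes, and their median was -1.22. Over all 8 libraries their median was -0.091. From control to RhoA het their summed level went from 511 to 218 CPM for number 5 and from 88.8 to 50.8 CPM for number 8. For number 7, where Cdh15 differed by -0.025, it went from 225 to 75.6 CPM. The part of these markers in the level of Cdh15 was not tested. Without control number 5 the difference in Cdh15 over the remaining 7 libraries was -0.047.

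Cdh4 encodes R-cadherin, a close relative of N-cadherin found in muscle and nerve (chromosome 2, 179084224 to 179541166, plus strand). In TPM it was the steadiest of the 4 cadherins. Control numbers 2, 5, 7 and 8 held 13.5, 12.5, 14.0 and 14.6 TPM. Its levels were 12.8, 17.7, 15.5 and 14.6 TPM in RhoA het numbers 5, 6, 7 and 8. Its coefficient of variation in TPM over the 8 libraries was 11.5%, against 27.6% for Cdh15. In log2 CPM libraries of the same group differed by 0.33 on average for Cdh4 and by 0.31 for Cdh15. RhoA het exceeded control by 0.064 on the log2 scale (SE 0.17, 95% interval -0.33 to 0.45, adjusted p 1.00 in edgeR), and this turned negative without RhoA het number 6, at -0.062, or without control number 5, at -0.047.

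Cdh2, on chromosome 18 (16721934 to 16942303, minus strand), encodes N-cadherin, which acts with M-cadherin in holding muscle stem cells to the fibre. It was at 6.88, 15.5, 10.8 and 15.2 TPM in control numbers 2, 5, 7 and 8 and at 10.4, 5.49, 11.4 and 11.4 TPM in RhoA het numbers 5, 6, 7 and 8. The lowest library of each group was the one with Y-linked reads, control number 2 and RhoA het number 6, and the other 6 libraries lay between 10.4 and 15.5 TPM. Averages of 30.6 ± 8.39 CPM for controls and 23.5 ± 6.30 CPM for RhoA het libraries (SD, n = 4 per group) gave a log2 difference of -0.38 (SE 0.25, 95% interval -0.95 to 0.19, adjusted p 1.00 in edgeR, two-sided exact permutation p 0.286). In the 3 pairs, none of which holds Y-linked reads above 2 fragments, Cdh2 differed by -0.53 for number 5, 0.093 for number 7 and -0.53 for number 8 on the log2 scale. The block fit gave -0.35 (interval -0.69 to -0.0063, unadjusted p 0.0466, adjusted p 0.931 in edgeR). This was the only one of the 8 tested members with an unadjusted p under 0.05 in the block fit, where 5.26% of all genes had one, 2.28% lower and 2.98% higher in RhoA het. Over all 8 libraries 0 of the 8 members had one, beside 2.38% of all genes, 0.696% lower and 1.68% higher.

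Cdh11, or OB-cadherin, is a cadherin of mesenchymal cells such as fibroblasts and vessel-associated cells (chromosome 8, 103358727 to 103512274, minus strand). It varied most among the 9 genes, with a coefficient of variation of 60.4%. Control numbers 2, 5, 7 and 8 held 4.08, 2.93, 2.85 and 6.25 TPM, and RhoA het numbers 5, 6, 7 and 8 held 3.10, 3.81, 2.65 and 10.7 TPM. The libraries numbered 8 were the highest in both groups. The mural marker Myh11 was also higher there than in the other libraries of the 3 pairs, at 124 CPM in control number 8 and 306 CPM in RhoA het number 8 against 18.2 to 42.0 CPM, and Smoc2, a marker of fibro-adipogenic cells, followed at 216 and 274 CPM against 27.8 to 53.5 CPM. Other values did not follow this order. Rgs5, also a mural marker, was at 486 CPM in control number 7 against 358 CPM in control number 8, and at 888 and 929 CPM in RhoA het numbers 6 and 8. In RhoA het number 6 Myh11 reached 124 CPM while Cdh11 was at 11.03 CPM. The 10 fibro-adipogenic markers summed to 10840 and 9768 CPM in control and RhoA het number 5, above the 9150 CPM of control number 8, and to 9956 CPM in RhoA het number 8. As the mean of log2(CPM + 1), which gives each marker equal weight, they did follow it within the pairs. Control and RhoA het number 8 were at 6.99 and 7.25, and numbers 5 and 7 at 5.98 to 6.27. RhoA het number 6 was higher, at 7.33. The part of these cells in the level of Cdh11 was not tested, and in bulk RNA more cells of a type cannot be told apart from more RNA per cell. The log2 fold change of Cdh11 was 0.21 (SE 0.48, interval -0.86 to 1.29, adjusted p 1.00 in edgeR), and it was -0.44 without RhoA het number 8 and -0.15 in limma-voom with library quality weights.

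**Figure D2:**
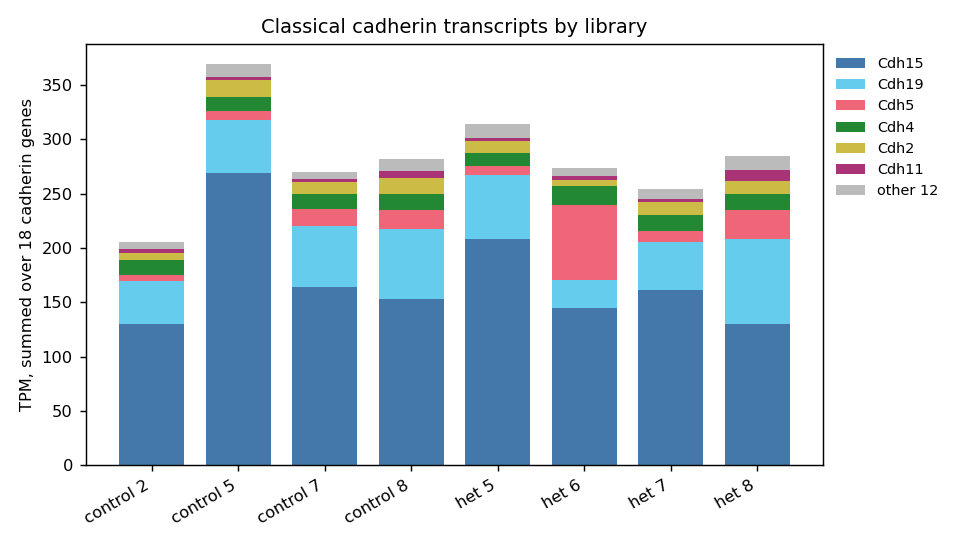
Summed TPM of 18 classical cadherin genes (vertical axis, linear from 0) in each library, split by gene; other 12 stands for the remaining genes of the list. Cdh15 made up 45.7% to 72.8% of each bar, and Cdh5 made up 25.1% of RhoA het number 6 and at most 9.32% elsewhere.

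Of 18 classical cadherin genes in the table, 11 were tested, 3 had fragments but did not pass the filter, and Cdh7, Cdh8, Cdh12 and Cdh18 held 0 fragments in every library. Cdh15 held 62.8% ± 7.71 of the summed cadherin TPM in control and 57.0% ± 9.51 in RhoA het (SD, n = 4 each), a difference of -5.72 percentage points that lay inside the spread between libraries. The difference was -2.38 points without control number 5, -1.963 without RhoA het number 8, -8.82 without RhoA het number 5 and -1.70 with Cdh5 left out of the sum. Its share was highest in control number 5, at 72.8%, and lowest in RhoA het number 8, at 45.7%. The second most abundant cadherin was Cdh19, a cadherin known from Schwann cells, at 26.4 to 78.3 TPM and 9.63% to 27.5% of the total. It was highest in RhoA het number 8, where the summed Schwann markers were also highest, at 474 CPM against 208 to 404 CPM elsewhere. The lowest levels of Cdh19, 26.4 TPM in RhoA het number 6 and 39.2 TPM in control number 2, came with 365 and 359 CPM of these markers, above the 229 and 208 CPM of control numbers 5 and 7; their part in its level was not tested. The endothelial cadherin Cdh5 took 25.1% of the total in RhoA het number 6. Of the 11 cadherins tested, 0 passed an adjusted p of 0.05 in either direction in edgeR, over all 8 libraries (lowest unadjusted p 0.0889, for Cdh5) or with the block. Their median log2 fold change was 0.101, beside -0.00071 over all genes tested; with the block it was 0.0099 beside -0.021.

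Ctnnb1 encodes beta-catenin, which binds cadherin tails and also carries Wnt signals to the nucleus (chromosome 9, 120758282 to 120789573, plus strand). Its levels were 108, 120.0, 79.2 and 124 TPM in control numbers 2, 5, 7 and 8 and 124, 89.3, 117 and 112 TPM in RhoA het numbers 5, 6, 7 and 8, so the groups overlapped and control number 7 was the lowest of all. Its log2 fold change of -0.065 (SE 0.18, interval -0.47 to 0.34, adjusted p 1.00 in edgeR) had no stable sign, being 0.10 with the block and 0.046 on the log2(TPM + 1) scale. Of its exon bases, 15.1% are shared with the annotated genes Mir7090 and Ulk4, so reads there were not assigned to it.

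Jup encodes plakoglobin, the close relative of beta-catenin that serves both adherens junctions and desmosomes (chromosome 11, 100259784 to 100288589, minus strand). In TPM it varied least of the 9 genes, with a coefficient of variation of 8.21%. In log2 CPM its libraries of the same group differed by 0.22 on average, more than those of Ctnnd1 (0.19) and Ctnna1 (0.20). Control numbers 2, 5, 7 and 8 held 129, 146, 134 and 140.1 TPM, and RhoA het numbers 5, 6, 7 and 8 held 133, 167, 147 and 142 TPM. The ratio of Jup to Ctnnb1 in TPM lay between 1.08, in RhoA het number 5, and 1.87, in RhoA het number 6, the library with endothelial markers, and it was next highest in control number 7, at 1.70. The log2 fold change of Jup was 0.019 (SE 0.14, interval -0.30 to 0.34, adjusted p 1.00 in edgeR); it was -0.045 with the block and -0.087 without RhoA het number 6.

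Ctnna1 encodes alpha-catenin, the link from beta-catenin to actin, and was the most abundant of the 9 genes by mean TPM (chromosome 18, 35251912 to 35387832, plus strand). Its level was 188, 220.2, 179 and 205 TPM in control numbers 2, 5, 7 and 8 and 209, 202, 213 and 246 TPM in RhoA het numbers 5, 6, 7 and 8, with overlapping groups. Its difference was 0.046 on the log2 scale (SE 0.13, 95% interval -0.26 to 0.35, adjusted p 1.00 in edgeR), and it was -0.030 without control number 7 and -0.016 without RhoA het number 8.

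Ctnnd1 encodes p120-catenin, the partner of Plekha7 (chromosome 2, 84430415 to 84481109, minus strand). The fragments that could be assigned to it gave 9.60, 17.3, 14.0 and 10.8 TPM in control numbers 2, 5, 7 and 8 and 15.5, 13.2, 14.2 and 12.6 TPM in RhoA het numbers 5, 6, 7 and 8, again overlapping. In CPM its same-numbered libraries lay closest among the 9 genes, 0.081 apart on average on the log2 scale, while libraries of the same group differed by 0.19. The groups differed by 0.049 on the log2 scale (SE 0.13, 95% interval -0.25 to 0.35, adjusted p 1.00 in edgeR) and -0.018 with the block.

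Over all 8 libraries, 0 of the 8 tested members passed an adjusted p of 0.05 in edgeR, and the block fit also gave 0; the shares called among all genes were 0% and 0.0127%. The median log2 fold change of the 8 members was 0.033, beside -0.00071 over all genes tested. With the block it was -0.0033, beside -0.021. For the 4 catenins the 95% intervals stayed within -0.47 and 0.35, whereas those of Cdh2 and Cdh11 reached -0.95 and 1.29.

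Plekha7 (chromosome 7, 115722720 to 115907611, minus strand; ENSMUSG00000045659.19) shares no exon base with another annotated gene. It was covered by 385, 337, 767 and 500 fragments in control numbers 2, 5, 7 and 8 and by 119, 244, 328 and 219 fragments in RhoA het numbers 5, 6, 7 and 8. After library scaling these were 20.3, 15.7, 28.7 and 23.5 CPM for controls and 5.59, 11.6, 14.7 and 11.3 CPM in RhoA het. Every control library lay above every RhoA het library, with a narrow gap between control number 5 at 15.7 CPM and RhoA het number 7 at 14.7 CPM. On average controls stood at 22.1 ± 5.50 CPM and RhoA het libraries at 10.8 ± 3.80 CPM (SD, n = 4 per group), which is -1.03 on the log2 scale. Among all genes tested, 1.81% had groups that did not overlap, 0.792% with RhoA het lower and 1.02% with it higher; since Plekha7 was chosen on this contrast, nothing is read from that.

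Within numbers, the CPM of Plekha7 in RhoA het was 0.357 times that of control for number 5, 0.511 times for number 7 and 0.479 times for number 8. The mean of the 3 differences was -1.16 on the log2 scale, and 64 of the 15660 genes tested had a lower mean. The size of the difference was smallest for number 7, at -0.96, and 14 genes, Plekha7 included, were lower by at least that much in 3 of 3 pairs. Plekha7 was chosen for these pair differences, so nothing is read from either count. Control number 2 and RhoA het number 6, which were not part of these pairs, stood at 20.3 and 11.6 CPM, a ratio of 0.570 from 1 library each. They differ in endothelial markers, and without RhoA het number 6 the log2 fold change over the other 7 libraries was -1.07. The lowest value, RhoA het number 5, came from a library high in cell cycle genes; its same-numbered control was high in them too and was the lowest control library. Leaving out RhoA het number 5 gave a log2 fold change of -0.82, the smallest among the fits that left out 1 library. Summed myofibre markers were lower in RhoA het in the 3 pairs too, at 218 against 511 CPM for number 5, 75.6 against 225 CPM for number 7 and 50.8 against 88.8 CPM for number 8. They went the other way between control number 2, at 79.6 CPM, and RhoA het number 6, at 473 CPM. Their part in the level of Plekha7 was not tested. Plekha7 also differed from the other 8 genes in that its libraries of the same number lay further apart than libraries of the same group, by 1.16 against 0.58 on the log2 scale, a contrast that follows from how it was chosen. For each of the other 8 genes, libraries of the same number were closer, or as close in the case of Ctnnb1 (0.3050 against 0.3051).

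**Figure D3:**
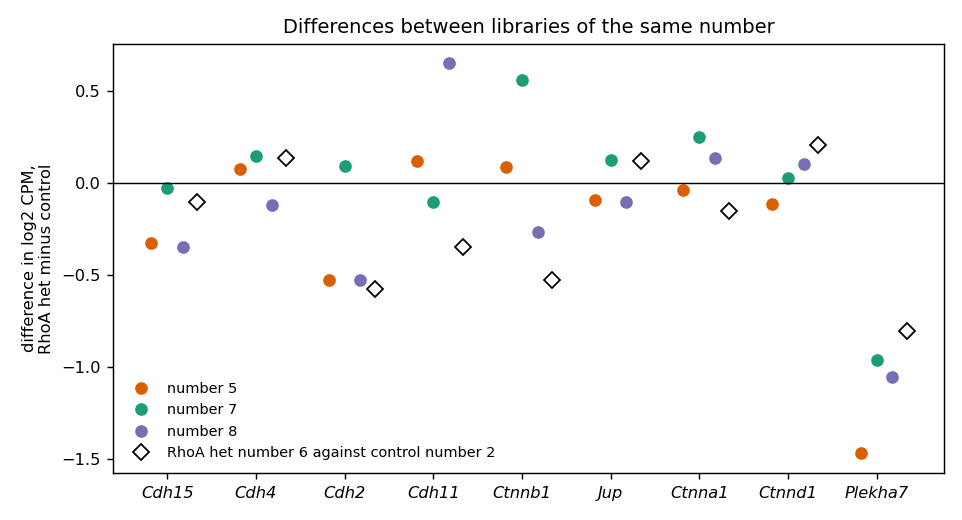
Difference in log2 CPM (vertical axis, RhoA het minus control) for each of the 9 genes; filled points are libraries of the same number and open diamonds set RhoA het number 6 against control number 2, which share no number. Plekha7 lies between -1.47 and -0.96 in the 3 pairs, Cdh15 is below 0 in 3 of 3 pairs, and each of the other 7 genes has points on both sides of 0.

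The lists that follow hold other junction genes, and their counts are read against all genes tested: an adjusted p under 0.05 in edgeR was reached by 0% of them over all 8 libraries and 0.0127% with the block, and an unadjusted one by 2.38% and 5.26%. Counts of 0 in lists of this size are therefore near the background and show nothing particular to a list. The list of relatives and partners of Plekha7 held 16 genes, of which 14 were tested and 0 passed an adjusted p of 0.05 in edgeR, with or without the block. At an unadjusted p under 0.05 there was 1 of 14, beside 2.38% of all genes (1.68% higher in RhoA het) and, with the block, 5.26% (2.98% higher): Camsap2, higher in RhoA het (log2 fold change 0.42, SE 0.15, adjusted p 1.00 in edgeR; 0.39 with the block). Camsap2 encodes a protein that binds microtubule minus ends, as does Camsap3, the family member known to work with Plekha7, which was too low to be tested. Camsap2 was at 20.1, 21.4, 15.2 and 19.02 CPM in control numbers 2, 5, 7 and 8 and at 27.0, 27.5, 23.6 and 23.1 CPM in RhoA het numbers 5, 6, 7 and 8. Its groups did not overlap, as for 1.81% of all genes (1.02% with RhoA het higher), and it was named after its values were seen. The closest relatives by name, Plekha5 and Plekha6, had log2 fold changes of -0.0093 and 0.25 (unadjusted p 0.948 and 0.535 in edgeR). The most abundant genes of the list were Adam10, a protease that cuts cadherins (54.5 ± 22.9 TPM in control and 59.7 ± 16.9 TPM in RhoA het, SD, n = 4 each), Plekha3 and Pdzd11, the latter a direct partner of Plekha7. Pdzd11 had a log2 fold change of -0.18 and Plekha3 one of 0.046. The median of the 14 genes was 0.188, beside -0.00071 over all genes tested, and with the block 0.083 beside -0.021.

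The nectin system, the adhesion molecules that Plekha7 connects to cadherin junctions, had 5 tested genes, and 0 passed an adjusted p of 0.05 in either fit in edgeR or an unadjusted one over all 8 libraries, beside 0%, 0.0127% and 2.38% of all genes. Its most abundant genes were Pvr, at 363 ± 53.4 TPM in control and 358 ± 20.1 TPM in RhoA het, and Nectin2, at 85.7 ± 10.3 and 83.4 ± 6.35 TPM (SD, n = 4 each). Nectin1 had a log2 fold change of 0.045.

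Among 14 genes that link junctions to actin, all tested, 0 passed the adjusted threshold and 0 had an unadjusted p under 0.05 in either edgeR fit, beside 2.38% and 5.26% of all genes. Actn4, an actin cross-linker, averaged 624 ± 64.9 TPM in control and 668 ± 63.8 TPM in RhoA het (SD, n = 4 each). Zyx and Vasp, which act where actin filaments meet junctions, had log2 fold changes of -0.042 and 0.031. The list's median was 0.023, beside -0.00071 over all genes tested, and with the block -0.047 beside -0.021.

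The other catenin family genes comprised 11 names, of which Arvcf was not matched to the table; 8 were tested and 0 passed in either edgeR fit, adjusted (0% and 0.0127% of all genes) or not (2.38% and 5.26%). The most abundant were Ctnnbl1, a splicing-associated protein that shares only its repeat structure with catenins, at 52.1 ± 6.09 TPM in control and 52.4 ± 6.67 TPM in RhoA het, then Ctnnbip1, an inhibitor of nuclear beta-catenin, and Ctnnal1, with log2 fold changes of 0.015 and 0.12.

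Genes of beta-catenin turnover and its nuclear partners showed 0 of 14 tested genes past the adjusted threshold in either edgeR fit. Without the block 0 had an unadjusted p under 0.05, and with it 1 did: Tcf7l1, a TCF factor that mostly represses, at 0.47 (unadjusted p 0.0425, adjusted p 0.927 in edgeR). That 1 of 14 stands beside 5.26% of all genes, 2.98% higher in RhoA het. Csnk1a1, a kinase that primes beta-catenin for destruction, averaged 221 ± 15.3 and 232 ± 6.32 TPM (SD, n = 4 each), and Tcf7l2 and Pygo2 had log2 fold changes of 0.047 and -0.22. Of 15 transcriptional targets of beta-catenin, 11 were tested and 0 passed in either edgeR fit, adjusted (0% and 0.0127% of all genes) or not (2.38% and 5.26%), with a median of 0.047 beside -0.00071 over all genes tested. The 3 most abundant were Myc, Ccnd1 and Znrf3, with log2 fold changes of -0.14, 0.039 and 0.16, and Myc and Ccnd1 answer to many other signals as well. Axin2, a more specific target, was low at 0.636 to 1.964 TPM. Lef1 did not pass the filter.

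**Figure D4:**
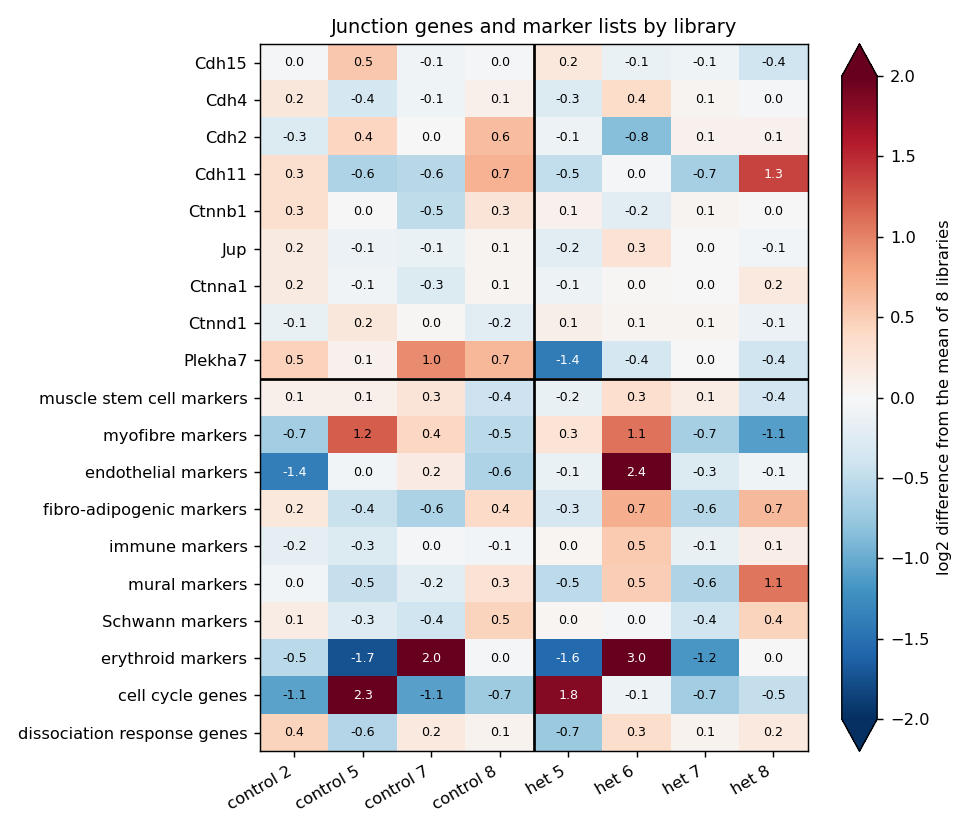
Difference from the mean of the 8 libraries on the log2 scale (colour, saturating at 2 and -2, with the value in each cell) for the 9 genes in CPM and for marker lists as the mean of log2(CPM + 1); columns are libraries, with control left of the vertical line. Cdh11 reaches 1.34 and the mural markers 1.07 in RhoA het number 8, and the endothelial markers reach 2.39 in RhoA het number 6.

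The genes whose pattern over the 8 libraries was most like that of Plekha7 were found by the root mean square difference between log2 CPM values centred on each gene's mean. Over 15372 genes with a symbol, the closest were Gm16385 (0.345), 2510016D11Rik (0.354) and Gm29257 (0.360), where the median over all genes was 0.760. All 3 averaged under 5 TPM, at 4.83, 2.64 and 3.57 TPM, so their own counts are small. The genes closest to Cdh15 were much nearer: Pfdn4, a chaperone subunit, at 0.072, Hmgb2, a chromatin protein that is high in dividing cells, at 0.080, and Ddr1, a collagen receptor, at 0.085, against a median of 0.403. Pfdn4, Hmgb2 and Ddr1 each had their highest CPM in control number 5, as Cdh15 did, at 52.0, 79.2 and 169 CPM. The libraries numbered 5 were the 2 highest for each of these 3 genes.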

How the data were processed

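RNA of sorted muscle stem cells was sequenced in 4 control and 4 RhoA het libraries. Per the file headers, the authors deposited counts per gene which featureCounts (version 1.6.4, counting read pairs) summed over the exons of each gene in GENCODE mouse release 34 (mm39), with no strand option and no option for multi-mapping or overlapping fragments, from STAR alignments. The deposited TPM values equal these counts divided by gene length and scaled to 1000000 per library, within a relative difference of 2e-14. Coordinates are those of the count table, which also gives gene length (exon bases). Symbols came from GENCODE release 21, which named 51884 of 57180 genes; promoter sequences came from RefSeq (GRCm38.p6).

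Counts were filtered with filterByExpr, scaled by TMM and compared with edgeR's quasi-likelihood test (edgeR 4.0.16, limma 3.58.1, R 4.3.3) over all 8 libraries, with Benjamini-Hochberg adjustment over all genes tested and a threshold of 0.05. The script was checked on simulated data. CPM uses TMM-scaled library sizes and log2 CPM a prior count of 2; standard errors come from the F statistic. Numbers 5, 7 and 8, shared by both groups in the titles, were also fitted as a block over those 6 libraries. They were taken to pair the libraries because same-numbered deviations from the group means correlated at 0.34 to 0.58 in the 3 pairs, and at -0.24 on average for different numbers; what the numbers stand for is not given in the labels. Libraries of a group differed beyond sampling noise. No per-sample column was left out.

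The genes, lists and alternatives were chosen with earlier results of these data known. From each list, the 3 genes with the highest mean TPM were named whatever their change; Camsap2, Tcf7l1, Plekha5, Plekha6, Axin2 and the marker genes were named after their values were seen. Alternatives were other scalings, filters and tests (DESeq2 1.42.0, limma-voom, limma on log2(TPM + 1) and log2(TPM + 0.1)), the block, and leaving out each library.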

Additional observations from a re-analysis of the deposited data

Results flagged for a closer look

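Dixon's ratio, the gap between an extreme library and its nearest neighbour divided by the range of the group, was computed for the 9 genes in log2 CPM and for the share of Cdh15 among cadherins, in both groups. Of these 20 ratios, 1 exceeded Dixon's 95% critical value for 4 libraries, where chance flags about 1 in 20. Cdh15 in control number 5, at 244 CPM against 160.1 to 164 CPM in the other control libraries, had a ratio of 0.94. The same library was the highest of all in summed cell cycle genes, at 419 CPM, and in summed myofibre markers, at 511 CPM. RhoA het number 6 held 473 CPM of myofibre markers with Cdh15 at 153 CPM. RhoA het number 5, with 319 CPM of cell cycle genes, had 195 CPM of Cdh15, the highest of its group. The part of these cells or states in the level of Cdh15 was not tested.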

How the results depend on the processing

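The count of changed genes was 0 over all 8 libraries and stayed 0 under each alternative without a block, including each left-out library, and with the number as a random effect; 372 genes had an unadjusted p under 0.05 in edgeR and 507 in DESeq2. With the replicate block over the 3 pairs it was 2, and in block fits chosen after seeing the data it was 139 with no filter, 4 with total counts and 0, 9 and 113 without number 5, 7 and 8 in turn. The count of tested members past the threshold was 0 in all 25 alternatives. Cdh15 (-0.36 to -0.047), Cdh2 (-0.55 to -0.21) and Plekha7 (-1.29 to -0.77) kept a negative log2 fold change in all 25. The difference in the share of Cdh15 among cadherins moved between -8.82 (without RhoA het number 5) and -1.70 percentage points (without Cdh5 in the sum). Only the value without RhoA het number 5 exceeded the SD pooled over the groups, 8.66 points.

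Several signs near 0 reversed; apart from fewer libraries in some fits, the cause was not tested. With the replicate block, Ctnnb1 turned to 0.10, Jup to -0.045 and Ctnnd1 to -0.018, and the same 6 libraries without it gave 0.070, -0.046 and -0.024. With the number as a random effect Ctnnb1 was at 0.029 and Jup at -0.0021. On log2(TPM + 1) and log2(TPM + 0.1) Ctnnb1 was at 0.046 in both. limma-voom with quality weights gave -0.15 for Cdh11 and -0.023 for Jup. The block without a filter gave 0.11 for Ctnnb1, -0.039 for Jup and -0.011 for Ctnnd1, and with total counts 0.13 for Ctnnb1 and -0.018 for Jup.

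Leaving out 1 library gave -0.062 to 0.16 for Cdh4, -0.44 to 0.50 for Cdh11, -0.21 to 0.032 for Ctnnb1, -0.087 to 0.085 for Jup, -0.030 to 0.11 for Ctnna1, -0.014 to 0.13 for Ctnnd1. Leaving out 1 pair from the replicate block gave -0.043 to 0.13 for Cdh4, 0.021 to 0.38 for Cdh11, -0.11 to 0.34 for Ctnnb1, -0.12 to 0.033 for Jup, -0.029 to 0.055 for Ctnnd1, with Ctnnb1 at 0.14 without number 5 and Ctnnd1 at -0.025 without number 7. Depth limits Plekha7 and Cdh11 most, at 119 to 767 and 157 to 558 fragments a library, and the intervals cover the spread between 4 libraries a group.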
